A study of Homo sapiens with 6 samples.

Results

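The 32 genes examined here code for the enzymes and regulators with which a cell makes cholesterol and fatty acids. They were taken by symbol from the deposited count table of 58735 genes, and all 32 were found and passed the filter on low counts that left 15341 genes for testing. RNA was sequenced from UE7T-9, a human mesenchymal stem cell (MSC) line from bone marrow, in 3 control libraries of genotype WT and in 3 libraries of the UE7T-9 SRRM4 KO line. SRRM4 codes for a splicing factor best known from neurons. The KO line is 1 clone, grown from a single cell after lentiviral delivery of Cas9 and a guide against SRRM4. In the study its SRRM4 protein was reduced rather than lost. The labels give the lentiviral knockout as the treatment of every sample, and whether the WT cells carried a vector without the guide is not stated. Both groups were kept in DMEM, which the methods supplement with fetal bovine serum.

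Cholesterol is built from acetyl-CoA through mevalonate, isoprenoid diphosphates, squalene and lanosterol, and the saturated fatty acid palmitate from the same acetyl-CoA through malonyl-CoA. Both routes are under the SREBP transcription factors, which are held in the endoplasmic reticulum by SCAP and INSIG proteins while sterols are plentiful and are cut free to enter the nucleus when sterols run low. Cells grown in serum can also take cholesterol from lipoproteins, so the pathway's RNA levels are commonly read as a gauge of sterol demand.

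The libraries held 21496117 to 23868323 counts, so that a count of 0 allows at most 3 counts, or 0.123 to 0.139 CPM (the count scaled to library size), counting error only. SRRM4 had 0 counts in all 6 libraries, and its RNA therefore gave no check of the knockout. Whether the 3 libraries of a group came from separate cultures is not stated, so p-values measure the spread between these libraries. Control replicate 1 stood apart from the other 2 controls, with 22403 genes counted against 20613 and 20674, and it was the lowest control library for 22 of the 32 genes. Of the MSC markers, NT5E (CD73) had 342 CPM in control and 490 in SRRM4 KO, ENG (CD105) 246 and 194, and THY1 (CD90) 144 and 26.7. Of the hematopoietic markers, PTPRC had at most 2 counts and HLA-DRA at most 11, while CD14 had 16.8 and 15.9 CPM and CD34 3.69 and 3.63. In bulk RNA, fewer cells of a type cannot be told apart from less RNA per cell.

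More of the 32 genes were higher than lower in SRRM4 KO cells. The higher ones were enzymes of every stretch of both routes and a cholesterol carrier, and the lower ones were a pair of regulators, a late sterol enzyme and the enzyme of malonyl-CoA. With an adjusted p under 0.05 (quasi-likelihood test of edgeR, adjusted by Benjamini-Hochberg over all tested genes), 14 of the 32 genes were higher in SRRM4 KO cells (43.8%), where 20.7% of all tested genes were. In the other direction 4 were lower (12.5%), against 20.9% of all tested genes, and 8 were lower when control replicate 1 was left out. The remaining 14 did not pass the test. The median log2 fold change of the 32 genes was 0.18, with quartiles of -0.17 and 0.36, beside a median of -0.01 over all tested genes. Without control replicate 1 the median of the 32 genes was 0.11. The values of the 2 groups did not overlap for 21 of the 32 genes (65.6%), which was also the case for 51.8% of all tested genes. The 32 genes are mostly abundant. Among the 4739 tested genes with a mean of at least 48.1 CPM, the lower quartile of the 32 genes, 27.9% were higher and 25.6% lower, and of the 24 pathway genes at that level 12 were higher (50.0%) and 2 lower (8.33%).

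Changes beyond 1 on the log2 scale were few. Beyond that size ACAT2, SCD5 and ELOVL6 were higher and EBP was lower, that is 3 and 1 of the 32 genes, where 5.45% and 7.14% of all tested genes passed the same limits upwards and downwards. ACAT2 at 1.05 and SCD5 at 1.01 lay just inside the limit, and NSDHL at 0.87 was the nearest gene outside it. Without SRRM4 KO replicate 3, ELOVL6 alone of the 3 higher genes was still beyond 1. Together the 32 genes took 0.642%, 0.707% and 0.697% of the counts in the control libraries and 0.806%, 0.804% and 0.802% in the SRRM4 KO libraries. All 3 SRRM4 KO shares were thus above all 3 control shares. The summed level went from 6976 ± 351 CPM (SD, n = 3) to 7876 ± 37.1 CPM, and the sum without FASN and SCD, the genes of most counts, went from 4652 ± 287 to 5199 ± 53.5 CPM.

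**Figure D1:**
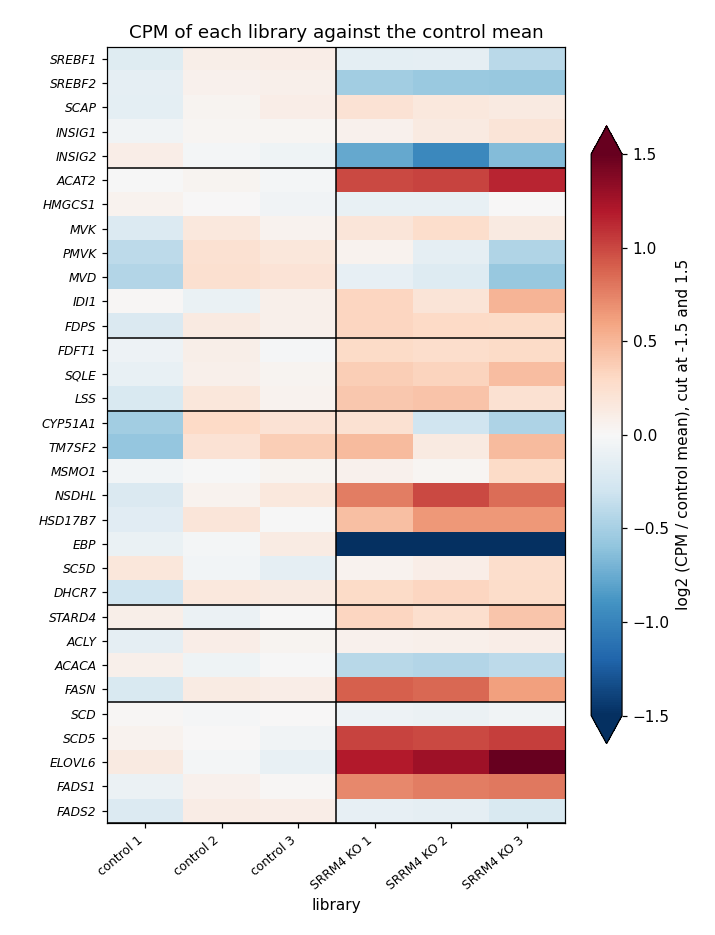
Log2 ratio of each library's CPM to the control mean for the 32 genes, in pathway order from the regulators at the top to the desaturases at the bottom, with the 3 control libraries left of the vertical line and the 3 SRRM4 KO libraries right of it. ELOVL6, SCD5 and ACAT2 form the deepest red rows on the right and EBP the deepest blue, and the colour of control replicate 1 is bluer than that of the other controls for most genes.

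None of the regulators passed the test as higher, and 2 passed it as lower. SREBF2, which codes for SREBP-2, the activator of the cholesterol genes (ENSG00000198911; plus strand of chromosome 22, 41833079 to 41907308, GRCh38), had 457, 525 and 528 CPM in control and 351, 342 and 340 CPM in SRRM4 KO. Each SRRM4 KO library lay below every control library. The log2 fold change was -0.55 (SE 0.08, adjusted p = 3.96e-05 by edgeR), and the tested genes within 5 Mb of it had a median of -0.24. INSIG2 (ENSG00000125629; plus strand of chromosome 2, 118088452 to 118110997), an endoplasmic reticulum anchor that retains SCAP and the SREBPs, also fell. It had 50.2, 46.0 and 44.9 CPM in control and 27.6, 24.1 and 30.0 CPM in SRRM4 KO, a log2 fold change of -0.79 (SE 0.11, adjusted p = 3.71e-05 by edgeR). The 32 tested genes within 5 Mb of INSIG2 had a median of -0.18, with 1 higher and 13 lower.

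The other 3 regulators did not pass the test. SREBF1, whose product SREBP-1 favours the fatty acid genes, had 197, 237 and 239 CPM in control and 202, 204 and 169 CPM in SRRM4 KO. The groups overlapped through control replicate 1, and the log2 fold change of -0.23 (adjusted p = 0.0803) became -0.31 with an adjusted p of 0.00129 (edgeR) without that library. INSIG1, a partner of INSIG2 that is itself a target gene of the SREBPs, had 359, 379 and 379 CPM in control and 388, 409 and 427 CPM in SRRM4 KO. SCAP, the escort that carries the SREBPs to the Golgi, had 91.0, 103 and 108 CPM in control and 117, 112 and 110 CPM in SRRM4 KO. In both genes the groups did not overlap, but the log2 differences of 0.13 and 0.16 gave adjusted p-values of 0.169 and 0.162 (edgeR).

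The 300 bases around the start of 28 of the 32 genes were matched in RefSeq (GRCh38.p14; 250 bases before the start and 50 after it), 38 windows in all, and searched on both strands for letters known from sterol-responsive promoters. The form TCACNCCAC of the sterol regulatory element, which SREBPs bind, was found in 1.13% of all 35116 windows and in 1 of the 28 genes, SREBF2. The E-box form TCACGTGA was found in 0.98% of all windows and in 1 of the 28 genes, INSIG1. CCAAT, the letters bound by NF-Y, was in the first listed window of 18 of the 28 genes (64.3%) and in 34.6% of all windows. GGGCGG, the letters bound by SP1, was in that of 26 (92.9%) and in 45.0% of all windows, and promoters rich in G and C hold it often. A match describes the sequence only. The stretches below show matches to the first 3 motifs, on either strand, in capitals. Those of SREBF2 and INSIG1 were chosen because they hold the rarer forms, and NSDHL and STARD4 are genes that rose. NSDHL and STARD4 were picked from the higher genes with at least 2 CCAAT matches in the first listed window, so their matches follow from the choice. The stretch of SREBF2 covers chr22:41832879-41833078 (plus strand), that of INSIG1 28 bases at chr7:155297812-155297839 (plus strand), inside an annotated INSIG1 exon, that of NSDHL chrX:152830813-152830966 (plus strand) and that of STARD4 chr5:111512591-111512785 (minus strand).
SREBF2: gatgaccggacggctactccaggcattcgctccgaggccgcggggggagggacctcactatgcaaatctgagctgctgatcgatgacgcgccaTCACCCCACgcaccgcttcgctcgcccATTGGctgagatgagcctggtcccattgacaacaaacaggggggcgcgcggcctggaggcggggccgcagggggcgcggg
INSIG1: ccgggcaggcTCACGTGAtgcgggcccc
NSDHL: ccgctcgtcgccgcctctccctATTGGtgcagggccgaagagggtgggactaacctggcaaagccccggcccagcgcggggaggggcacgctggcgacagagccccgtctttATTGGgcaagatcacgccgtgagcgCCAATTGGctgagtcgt
STARD4: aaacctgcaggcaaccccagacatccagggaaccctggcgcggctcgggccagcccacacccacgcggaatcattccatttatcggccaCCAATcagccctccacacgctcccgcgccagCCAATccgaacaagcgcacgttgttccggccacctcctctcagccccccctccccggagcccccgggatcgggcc
The stretch of SREBF2 holds its sterol element 133 bases and its CCAAT match 106 bases before the start. NSDHL and STARD4, both higher in SRRM4 KO cells, hold 4 and 2 CCAAT matches in the stretches shown, a pair of which overlap on opposite strands in NSDHL, and neither held the 2 rarer forms in its window. Over all their windows, CCAAT was found in 8 of 10 matched genes that were higher, 3 of 4 that were lower and 10 of 14 that did not pass the test, and MVK and MSMO1, which did not pass it, held 5 and 4 matches in their first listed window.

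Of the 7 genes of the mevalonate and isoprenoid steps, 3 rose and none fell. ACAT2 (ENSG00000120437; plus strand of chromosome 6, 159760328 to 159779055), the cytosolic thiolase that joins acetyl-CoA units at the start of the route, had 83.5, 86.4 and 82.3 CPM in control and 167, 170 and 185 CPM in SRRM4 KO. The SRRM4 KO libraries all lay far above the controls, with a log2 fold change of 1.05 (SE 0.08, adjusted p = 9.83e-08 by edgeR). The libraries are non-stranded, and 52.3% of the exon bases of ACAT2 are also exon bases of other genes, among them TCP1 and SOD2 on the opposite strand. TCP1, a chaperonin subunit, rose by less (log2 fold change 0.44, adjusted p = 0.000231) and SOD2, the mitochondrial superoxide dismutase, fell (-0.34, adjusted p = 0.0143, both edgeR). How reads in the shared bases were assigned is not stated, so the level of ACAT2 is uncertain to that extent.

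IDI1, the isomerase of the isoprenoid units, had 95.5, 88.3 and 99.5 CPM in control and 118, 108 and 134 CPM in SRRM4 KO (log2 fold change 0.34, adjusted p = 0.00894 by edgeR). FDPS, which joins them to farnesyl diphosphate, had 83.7, 107 and 103 CPM in control and 122, 120 and 119 CPM in SRRM4 KO (0.30, adjusted p = 0.0213 by edgeR). In both genes the groups were separate, and in both the call was lost when SRRM4 KO replicate 3 was left out. IDI1 was then at 0.25 (adjusted p = 0.0699) and FDPS at 0.30 (adjusted p = 0.0578, both edgeR). For FDPS the call was also lost without SRRM4 KO replicate 1 (log2 fold change 0.29, adjusted p = 0.0838) or 2 (0.30, adjusted p = 0.0761, both edgeR). HMGCS1, the synthase that makes HMG-CoA and the gene of the group with the highest control level per length, had 172, 166 and 160 CPM in control and 154, 154 and 166 CPM in SRRM4 KO. Its groups overlapped, at a log2 fold change of -0.07. The kinases MVK (0.19) and PMVK (-0.18) and the decarboxylase MVD (-0.32) did not pass the test either. MVD was at 41.4 CPM in control replicate 1 and at 66.2 and 64.5 in the other controls, and without replicate 1 it stood at -0.51 (adjusted p = 0.000381 by edgeR), while PMVK then had an adjusted p of 0.0498.

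All 3 genes from farnesyl diphosphate to lanosterol, the first sterol, rose by like amounts. FDFT1, squalene synthase, had 196, 220 and 204 CPM in control and 251, 248 and 252 CPM in SRRM4 KO. SQLE, the epoxidase that is a control point of the route, had 105, 119 and 116 CPM in control and 146, 143 and 156 CPM in SRRM4 KO. LSS, the cyclase that forms the sterol rings, had 204, 270 and 249 CPM in control and 318, 321 and 281 CPM in SRRM4 KO. In each the lowest SRRM4 KO library was above the highest control library. The log2 fold changes were 0.28 (SE 0.08, adjusted p = 0.00897), 0.39 (SE 0.08, adjusted p = 0.00177) and 0.35 (SE 0.10, adjusted p = 0.0109) by edgeR. LSS lost its call without SRRM4 KO replicate 1 (log2 fold change 0.32, adjusted p = 0.0595) or 2 (0.31, adjusted p = 0.0668, both edgeR). The summed level of the 3 genes went from 561 ± 52.2 to 706 ± 14.1 CPM, a ratio of 1.26.

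The 8 genes from lanosterol to cholesterol were uneven, with 3 higher and 1 lower. EBP (ENSG00000147155; plus strand of chromosome X, 48521158 to 48528716), the isomerase that shifts the ring double bond, had 114, 119 and 137 counts in control and 41, 33 and 40 counts in SRRM4 KO. These are 5.26, 5.52 and 6.14 CPM against 1.84, 1.35 and 1.82 CPM, well apart and all above the limit of detection. The level was 3.38-fold lower in SRRM4 KO (log2 fold change -1.76, SE 0.25, adjusted p = 3.84e-05 by edgeR), the largest change of the 32 genes in either direction. The tested genes around EBP went the other way, with a median of 0.36 over 75 genes within 5 Mb, of which 30 were higher, 4 lower and 3 had a log2 fold change below that of EBP. Per kilobase of gene length EBP had the lowest level of the 32 genes in both groups, 2.34 and 0.694 CPM per kb.

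NSDHL (ENSG00000147383; plus strand of chromosome X, 152830967 to 152869729), a dehydrogenase that helps to remove the methyl groups of lanosterol, had 20.7, 24.9 and 26.7 CPM in control and 40.8, 47.7 and 43.0 CPM in SRRM4 KO. The groups were separate, at a log2 fold change of 0.87 (SE 0.12, adjusted p = 3.14e-05 by edgeR), and 68 of the 75 tested genes within 5 Mb had a smaller value than NSDHL. Those 75 genes had a median of 0.31, with 33 higher and 9 lower. EBP and NSDHL, which lie on the same chromosome, thus moved in opposite directions. HSD17B7, the reductase that acts after NSDHL, rose by a log2 fold change of 0.58 (SE 0.12, adjusted p = 0.00137 by edgeR). Pseudogenes named after 5 of the 32 genes are annotated (FDPS, CYP51A1, HSD17B7, SCD and FADS2), and how the counting split reads between near-identical copies is not stated. DHCR7, the last reductase before cholesterol, had 172, 235 and 232 CPM in control and 258, 263 and 255 CPM in SRRM4 KO. The call of DHCR7 was marginal at a log2 fold change of 0.28 (adjusted p = 0.0436, edgeR). Without control replicate 1, the low control library, it was 0.15 with an adjusted p of 0.0525.

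The gene of this stretch with the highest level per length was MSMO1, the monooxygenase of lanosterol's methyl groups, with 223, 227 and 236 CPM in control and 240, 234 and 279 CPM in SRRM4 KO, overlapping groups and a log2 fold change of 0.13. The others that did not pass the test were the demethylase CYP51A1 (-0.20), the reductase TM7SF2 (0.32) and the desaturase SC5D (0.14). Without control replicate 1, SC5D was at 0.23 with an adjusted p of 0.0135 (edgeR). With 1 library left out at a time TM7SF2 ranged from 0.08, without control replicate 1, to 0.50 (without control replicate 3), and CYP51A1 from -0.43, without SRRM4 KO replicate 1, to -0.05 (without control replicate 2). CYP51A1 shares 83.2% of its exon bases with other annotated genes and had only 6.69 to 11.8 CPM over the 6 libraries, so its level is uncertain. STARD4, which carries cholesterol between membranes, rose from 178, 158 and 167 CPM to 210, 200 and 223 CPM (log2 fold change 0.33, SE 0.08, adjusted p = 0.00466 by edgeR). Its antisense gene STARD4-AS1, with which it shares 2.18% of its exon bases, went down (-1.14, adjusted p = 0.000118 by edgeR).

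**Figure D2:**
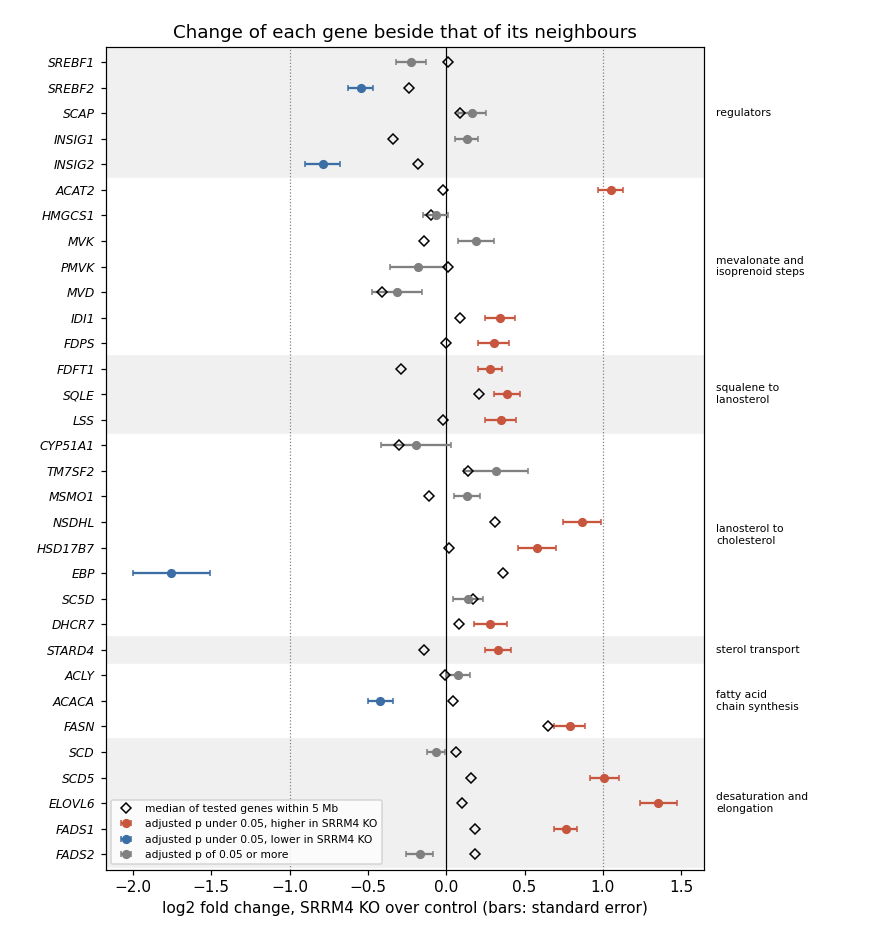
Log2 fold change of the 32 genes in SRRM4 KO over control (points, with the standard error of edgeR's fit as bars) beside the median of the tested genes within 5 Mb of each (open diamonds), with dotted lines at -1 and 1. The 14 higher genes are red and the 4 lower ones blue, and ELOVL6 at 1.35 and EBP at -1.76 are the ends of the range.

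In the making of the fatty acid chain the 3 genes went 3 ways. FASN (ENSG00000169710; minus strand of chromosome 17, 82078333 to 82098332), the synthase of palmitate, had 506, 645 and 637 CPM in control and 1105, 1078 and 906 CPM in SRRM4 KO. All 3 SRRM4 KO libraries were well above the controls (log2 fold change 0.79, SE 0.10, adjusted p = 1.18e-05 by edgeR). Of the 102 tested genes within 5 Mb of FASN, 65 were higher, their median was 0.65, and 44 of them had a larger log2 fold change than FASN itself. The rise of FASN was therefore close to that of its neighbours, and their part in it was not tested. ACACA (ENSG00000278540; minus strand of chromosome 17, 37084988 to 37406818), the carboxylase that makes malonyl-CoA, went down from 134, 121 and 126 CPM to 94.9, 93.4 and 96.7 CPM. No library of one group reached the other, and the log2 fold change was -0.42 (SE 0.08, adjusted p = 0.000741 by edgeR) in a neighbourhood with a median of 0.04. ACLY, which supplies cytosolic acetyl-CoA from citrate, had 356, 419 and 401 CPM in control and 408, 411 and 418 CPM in SRRM4 KO and did not pass the test (0.07).

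Of the 5 genes that desaturate and lengthen fatty acids, 3 rose, and the group's median of 0.76 was the highest of the 7 role groups. ELOVL6 (ENSG00000170522; minus strand of chromosome 4, 110045846 to 110199199), the elongase that takes palmitate to stearate, had 32.5, 28.9 and 27.3 CPM in control and 67.5, 71.4 and 88.0 CPM in SRRM4 KO. The lowest SRRM4 KO library was far above the highest control, and the fitted level was 2.56-fold higher in SRRM4 KO (log2 fold change 1.35, SE 0.12, adjusted p = 2.56e-07 by edgeR). SCD5 (ENSG00000145284; minus strand of chromosome 4, 82629539 to 82798857), a stearoyl-CoA desaturase, had 36.3, 35.3 and 33.7 CPM in control and 70.7, 69.5 and 71.8 CPM in SRRM4 KO. Its SRRM4 KO libraries lay close together, at 70.7 ± 1.16 CPM, and the log2 fold change was 1.01 (SE 0.09, adjusted p = 4.01e-07 by edgeR). FADS1 (ENSG00000149485; minus strand of chromosome 11, 61799625 to 61829318), a desaturase of polyunsaturated fatty acids, had 374, 416 and 401 CPM in control and 654, 676 and 689 CPM in SRRM4 KO (log2 fold change 0.76, SE 0.07, adjusted p = 6.22e-07 by edgeR). The genes around ELOVL6, SCD5 and FADS1 had medians of 0.10, 0.16 and 0.18.

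SCD, the main stearoyl-CoA desaturase and by far the most abundant of the 32 genes, had 1742, 1706 and 1734 CPM in control and 1645, 1625 and 1671 CPM in SRRM4 KO. The groups did not overlap, but the log2 fold change of -0.07 (SE 0.06, adjusted p = 0.374 by edgeR) did not pass the test. FADS2 acts before FADS1 on polyunsaturated fatty acids, and its annotated span on chromosome 11 encloses FADS1 on the opposite strand. FADS2 had 426, 527 and 523 CPM in control and 450, 445 and 418 CPM in SRRM4 KO. Its groups overlapped through control replicate 1, and its log2 fold change of -0.17 (adjusted p = 0.133) was -0.26 with an adjusted p of 0.000486 (edgeR) without that library. FADS1 and FADS2 share under 6% of their exon bases with each other and other genes (5.57% and 4.89%). FADS2 also overlaps FEN1, a DNA replication gene that rose by 1.54 on the log2 scale.

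**Figure D3:**
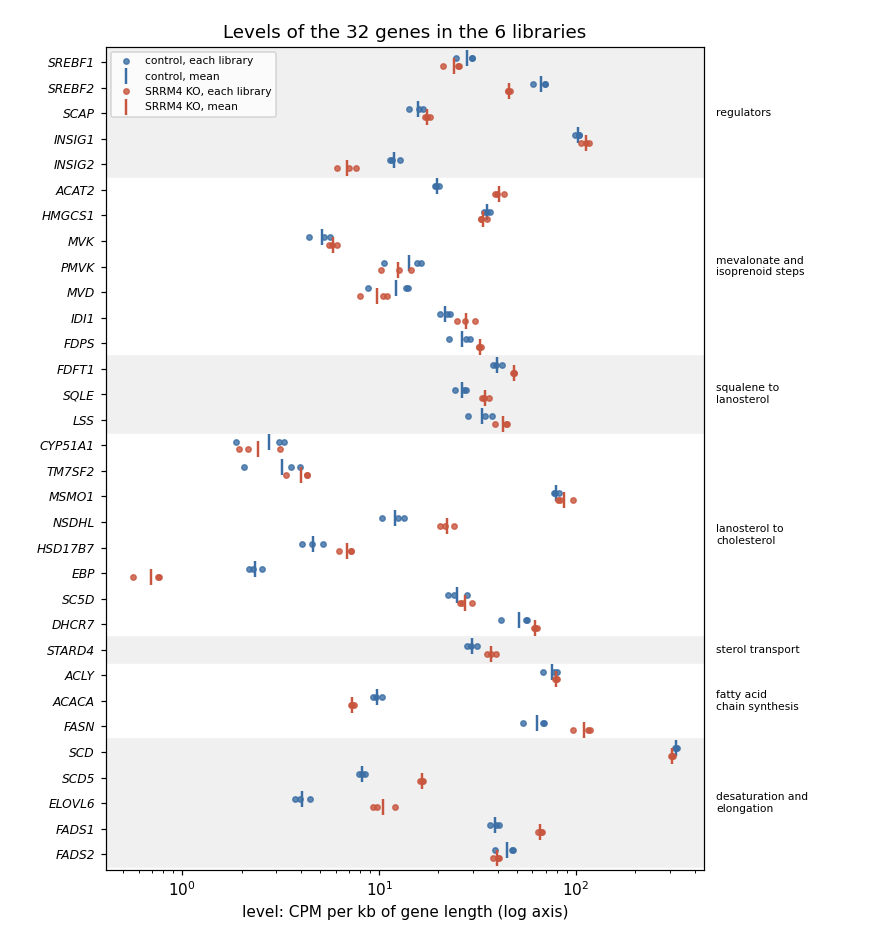
Level of each of the 32 genes in CPM per kilobase of gene length on a log axis, with a point for each library and a vertical bar for the mean of 3 libraries, control in blue and SRRM4 KO in red. The mean of SCD is farthest to the right in both groups and that of EBP farthest to the left, and the red and blue points of ACAT2, SCD5 and ELOVL6 are clearly apart.

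Set beside each other per kilobase of gene length, the first 2 places were held by the same genes in both groups. SCD had 322 CPM per kb in control and 307 in SRRM4 KO, followed by INSIG1 with 102 and 112. FASN went from rank 6 of 32 (63.7 CPM per kb) to rank 3 (110), FADS1 from rank 10 (38.8) to rank 6 (65.8) and ACAT2 from rank 19 (19.6) to rank 11 (40.4). SREBF2 went from rank 5 (66.6) to rank 9 (45.6). SCD5 and ELOVL6 stayed minor in this measure, at 8.17 and 4.05 CPM per kb in control and 16.5 and 10.4 in SRRM4 KO. The rises beyond 1 were thus in genes of middle or low level, and SCD remained far above SCD5.

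Ratios of related genes within a library do not depend on library size, and 4 pairs were compared. The SCD5 to SCD ratio of counts was 0.0208, 0.0207 and 0.0194 in control and 0.043, 0.0427 and 0.043 in SRRM4 KO. The INSIG1 to INSIG2 ratio was 7.15, 8.24 and 8.43 in control and 14.0, 17.0 and 14.2 in SRRM4 KO. The FADS1 to FADS2 ratio was 0.877, 0.789 and 0.768 in control and 1.45, 1.52 and 1.65 in SRRM4 KO, so that the more abundant gene of the pair changed from FADS2 to FADS1 in counts. The SREBF1 to SREBF2 ratio was 0.431, 0.451 and 0.453 in control and 0.576, 0.598 and 0.497 in SRRM4 KO. SREBF1 and SREBF2 lie on chromosomes 17 and 22, whose medians were 0.21 and -0.26, and less these their log2 fold changes were -0.43 and -0.29, so that the direction of this ratio reversed. As counted, each ratio was higher in 3 of 3 SRRM4 KO libraries than in any control, by log2 differences of 1.08, 0.92, 0.93 and 0.32 in that order. The shared direction depends on which gene of a pair was set on top. No other gene pairs were compared, and taken singly 51.8% of all tested genes had groups that did not overlap. The ratios restate values of the genes given above. The exact two-sided permutation p was 0.1 for each pair, also after Benjamini-Hochberg adjustment over the 4 pairs, which is the smallest value that 3 libraries against 3 can give.

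**Figure D4:**
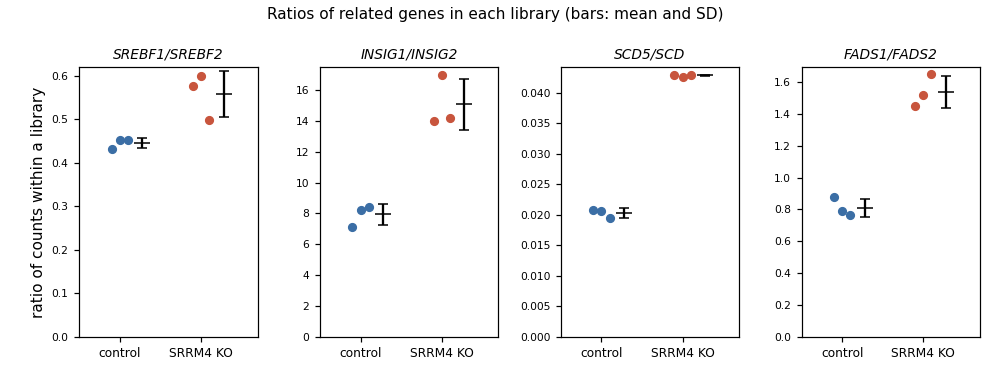
Ratio of the counts of related genes within each library for 4 pairs (a point per library, control in blue and SRRM4 KO in red, bars for the mean and SD of 3 libraries), each panel on its own axis from 0. In every panel the 3 SRRM4 KO points lie above the 3 control points, and for SCD5 to SCD the mean ratio is 0.0203 in control and 0.0429 in SRRM4 KO.

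Some values of whole chromosomes and of other lists moved with these results. The genes of chromosomes 2, 7, 16 and 22 had medians of -0.25, -0.25, -0.28 and -0.26, those of chromosome 17 had 0.21 and those of chromosome X 0.32. Against the tested genes within 5 Mb, 13 of the 32 genes were above the upper quartile of their neighbours, 5 below the lower quartile and 14 within the quartiles. By definition, as many neighbours lie above the upper quartile as below the lower, and as many within the quartiles as outside them. Subtracting the chromosome medians left the median of the 32 genes at 0.18 and moved SREBF2 to -0.29, NSDHL to 0.55 and DHCR7 to 0.18. It also moved ACAT2 from 1.05 to 0.95, which left 2 higher genes beyond 1. Of the genes that did not pass the test, INSIG1 moved to 0.38, SREBF1 to -0.43 and MVD to -0.04, and the sign turned for CYP51A1 (from -0.20 to 0.06) and ACLY (from 0.07 to -0.13). A list of 12 mitosis genes rose as a whole, 12 of 12 by 1.04 to 1.84 on the log2 scale, and its summed level was 695 to 817 CPM in control and 1778 to 1842 CPM in SRRM4 KO. The part of dividing cells in the changes of the lipid genes was not tested. Of 5 adipocyte markers none had enough counts to be tested, ADIPOQ, LEP and CIDEC were at 0 in every library, and the 5 together reached 0.185 to 0.696 CPM in control and 0.287 to 0.364 CPM in SRRM4 KO.

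Around the core pathway, 60 further genes in 4 lists gave 56 tested genes, of which 16 were higher (28.6%) and 7 lower (12.5%), with a median log2 fold change of 0.13. The shares over all tested genes, given above, were 20.7% and 20.9%. Beyond 1 on the log2 scale none was higher and 1 was lower. This was CYP27A1, a mitochondrial hydroxylase that turns cholesterol into an oxysterol, with 240, 279 and 352 counts in control and 56, 52 and 46 counts in SRRM4 KO. The 3 SRRM4 KO libraries were far below the controls (log2 fold change -2.56, SE 0.20, adjusted p = 7.75e-08 by edgeR). In the list of SREBP processing and sterol-regulated degradation, 2 of 11 genes were higher and 1 lower, and the lower one was MBTPS1, the protease of the first SREBP cleavage (304 against 214 CPM, log2 fold change -0.51, adjusted p = 5.32e-05 by edgeR). It lies on chromosome 16, and less that chromosome's median its log2 fold change was -0.23. In the list of sterol efflux, storage and trafficking, 2 of 13 tested genes were higher, among them the lysosomal cholesterol carrier NPC2 (0.59), and 2 were lower, CYP27A1 and the efflux pump ABCA1 (-0.38, and -0.14 less the median of chromosome 9). In the isoprenoid branch 3 of 9 tested genes were higher and none lower. Of 23 tested genes of other fatty acid synthesis and activation, 9 were higher, led by ACSL4 (0.93), which activates polyunsaturated fatty acids, and ELOVL4 (0.84), and 4 were lower, among them ACSL5 (-0.85), ACACB (-0.60) and ME1 (-0.59). Less their chromosome medians, ACSL4, on chromosome X, was at 0.62 and ELOVL4 at 0.74, so that their order turned over. MBTPS1 and the related genes given by their log2 fold change alone were named after their values were seen.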

How the data were processed

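The 32 genes, the related lists and the markers were chosen with earlier results of these data known. Counts of reads per gene, whole and not normalized, were deposited from non-stranded mRNA-seq. The submitters' processing notes name HISAT2 2.0.5, featureCounts 1.5.0-p3 and DESeq2, with no roles, and the genome build is not given in the sources used here. Gene coordinates are those of the table and match GENCODE release 29 (GRCh38). Columns were assigned to samples by title. Of the 58735 genes, 27405 had at least 1 count.

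Groups were compared with edgeR 4.0.16 in R 4.3.3 (TMM, filterByExpr, prior count 0.125, quasi-likelihood test, Benjamini-Hochberg adjustment over 15341 genes) in all 6 libraries without covariates, and a gene was past the test at an adjusted p under 0.05. The standard error is that of the log2 fold change, taken from its size and the F statistic. CPM uses TMM-scaled library sizes, and CPM per kb divides by the deposited gene length. Neighbours are tested genes within 5 Mb. Libraries of a group differed by 4.93 to 21.4 times the sampling noise (chi-square per degree of freedom), so no pair was merged as 1 library deposited again, which does not show that they came from separate cultures. Alternatives were DESeq2 1.42.0, other size factors and filters, a replicate block, chromosome centring, glmTreat and each library left out in turn. Leaving libraries out of the pair ratios and the comparison with abundant genes were added after the data were seen. Values per library are given for the 5 regulators, for genes past the test beyond 1, and for the gene of largest change and of highest level per length in each role, and the other genes whose per-library values are printed were added for their call. The procedure was tested on simulated data with 200 changed genes. There edgeR recovered 91 of them at a log2 fold change of 0.5, 187 at 1 and 200 at 2. It also called 7, 12 and 10 unchanged genes. Changes of 0.5 were thus often missed in the simulation. Far fewer genes were changed in it than passed the test in the real data (6384).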

Additional observations from a re-analysis of the deposited data

How the results depend on the processing

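Of the 32 genes, 23 kept their call in each of the 12 alternatives that give a p of their own, 4 higher genes lost it in at least 1 (IDI1, FDPS, LSS and DHCR7) and 5 gained one (SREBF1, PMVK, MVD, SC5D and FADS2), and no called gene changed direction. Centring each chromosome changes values only and gives no new p, so no call at the adjusted p could change under it, but the higher genes beyond 1 went from 3 to 2 and the direction of the SREBF1 to SREBF2 ratio reversed. DESeq2 and the other size factors of DESeq2 type kept all 32 calls. DHCR7 also lost its call with upper-quartile normalization (adjusted p = 0.0743) and with at least 10 counts in every library (0.061) and without any one of the SRRM4 KO replicates (0.0946 to 0.142), and SREBF1 (0.0474) and MVD (0.0173) gained one with no filter (edgeR). Leaving out 1 library at a time gave 11 to 14 higher genes, 4 to 8 lower genes and a median log2 fold change of 0.11 to 0.22. The 8 lower genes and the median of 0.11 came without control replicate 1, where SC5D also became higher (0.0135). The higher genes beyond 1 numbered 1 to 3, with 1 without SRRM4 KO replicate 3 and 1 with glmTreat, a test against a log2 fold change of 1. The related genes higher beyond 1 numbered 0 to 1, with 1 without control replicate 1. For these the cause was not tested. Samples with the same replicate number showed no tendency to deviate together (correlations of -0.086, 0.109 and -0.102, against -0.166 to 0.232 for unlike numbers). These values show no pairing by number but cannot establish that there was none. With the replicate block 14 genes were higher and 4 lower, as without it. The depth limits EBP most, at 33 to 137 counts per library.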
